A study of Mus musculus with 3 samples.

Results

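The genes described here are 8 that write, maintain or erase the methyl mark on cytosine in DNA: the methyltransferases Dnmt1, Dnmt3a and Dnmt3b, the maintenance factor Uhrf1, the oxidising enzymes Tet1, Tet2 and Tet3, and the glycosylase Tdg. They were taken by gene symbol from the GENCODE M21 annotation of the mouse build mm10, and are 8 of 21851 protein-coding genes. Their annotated transcripts start at 53 of the 63147 transcription start sites (TSSs) of those genes, where starts of a gene within 100 bp of each other count as 1 site and sites are numbered from the most upstream. Peaks and footprints were collected over each gene body and 50 kb on either side. The data are DNase-seq libraries, in which sites of DNA cleavage by DNase I mark chromatin that is open to the enzyme. The tissue was liver of mouse embryos at 13.5 days. There were 3 libraries, which the labels number as biological replicates 1, 2 and 3. All came from 1 group: wild-type C57BL/6N,129 mice with the A20 yeast artificial chromosome (YAC) at single copy, a transgene whose own sequence was not analysed here. No untreated, mutant or other-tissue control was part of the group, and the sex was not collected. The labels give the 3 libraries separate biosamples but the same donor identifier, so the spread between them may be partly technical.

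Methylated CpG dinucleotides are copied to the new strand after DNA replication by Dnmt1, which Uhrf1 brings to hemimethylated DNA. Dnmt3a and Dnmt3b place new methyl groups. Tet enzymes oxidise methylcytosine stepwise, and Tdg cuts out the more oxidised bases so that base excision repair restores cytosine. At midgestation the liver is the main site of red cell production, and its cells are mostly dividing red cell precursors together with hepatoblasts.

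The 3 libraries held 34369, 122281 and 60862 peaks and 89836, 342756 and 156638 footprints, in replicate order. A footprint is a short stretch protected from cleavage inside open chromatin. Peak signal is a per-library scaled value, with a median of 1.16, 0.386 and 0.699, so levels are compared within a library or as percentiles and not as differences between libraries. Read totals were not used here and the depth is unknown. With 1 group of 3 libraries no difference between conditions can be tested, and an exact sign-flip permutation test within libraries cannot go below p = 0.25, so comparisons are given by the values of the 3 libraries. Of markers for red cell precursors, 6 of 6 had a promoter peak in all 3 libraries, with a median percentile of 56.9, 64.1 and 77.0 and means per gene from 59.4 to 94.4. Among hepatoblast markers 2 of 5 did, Foxa3 at a mean percentile of 84.4 and Prox1 at 49.4, and the medians of the list were 0, 45.5 and 50.9. Afp and Hnf4a had a promoter peak in replicates 2 and 3, and Alb in no library. Among germ and pluripotent cell markers 1 of 5 did (Dazl), with medians of 0, 39.8 and 0, and Nanog and Zp3 had none. In bulk tissue, fewer cells with an open site and a less open site in each cell cannot be told apart, and the part of the cell mixture in the values below was not tested.

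A promoter peak, within 1000 bp of a TSS of a protein-coding transcript in the annotation's basic set, was found in all 3 libraries for 7 of the 8 genes. The share over all protein-coding genes was 51.4%, and within replicates 1, 2 and 3 it was 54%, 67.3% and 56.4%, with 7 of the 8 genes in each. Tet1 was the exception, with no such peak in any library. The maintenance pair stood highest, the glycosylase and Tet3 followed, and the de novo enzymes were lowest of the 7 with a peak. Genes were ranked in each library by the highest peak signal at the promoter, and the percentile counts how many in 100 rank below. On this scale Uhrf1 was at 91.8 ± 1.81 (SD, n = 3) and Dnmt1 at 89.7 ± 3.38 (SD, n = 3). Tdg was at 75.1 ± 4.57, Tet3 at 69.0 ± 5.66 and Tet2 at 58.1 ± 2.27 (SD, n = 3). Dnmt3a was at 52.2 ± 1.77 and Dnmt3b at 49.99 ± 3.62 (SD, n = 3). In replicates 1, 2 and 3 Dnmt3a was at 53.4, 53.1 and 50.2, and Dnmt3b at 53.4, 50.3 and 46.2. With 54%, 67.3% and 56.4% of genes having a peak, these ranks are low among genes with one, above all in replicates 1 and 3. The median was 63.6 over the 8 genes and 48.0 over all protein-coding genes. Neighbours in this order whose ranges over the libraries overlapped were Uhrf1 and Dnmt1, Tdg and Tet3, and Dnmt3a and Dnmt3b. Compared within each library, Tdg was above Tet3 in 3 of 3. Uhrf1 was above Dnmt1, and Dnmt3a above Dnmt3b, in 2 of 3. The steps from Dnmt1 to Tdg, from Tet3 to Tet2, from Tet2 to Dnmt3a and from Dnmt3b to Tet1 did not overlap and had the same direction in 3 of 3 libraries.

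**Figure D1:**
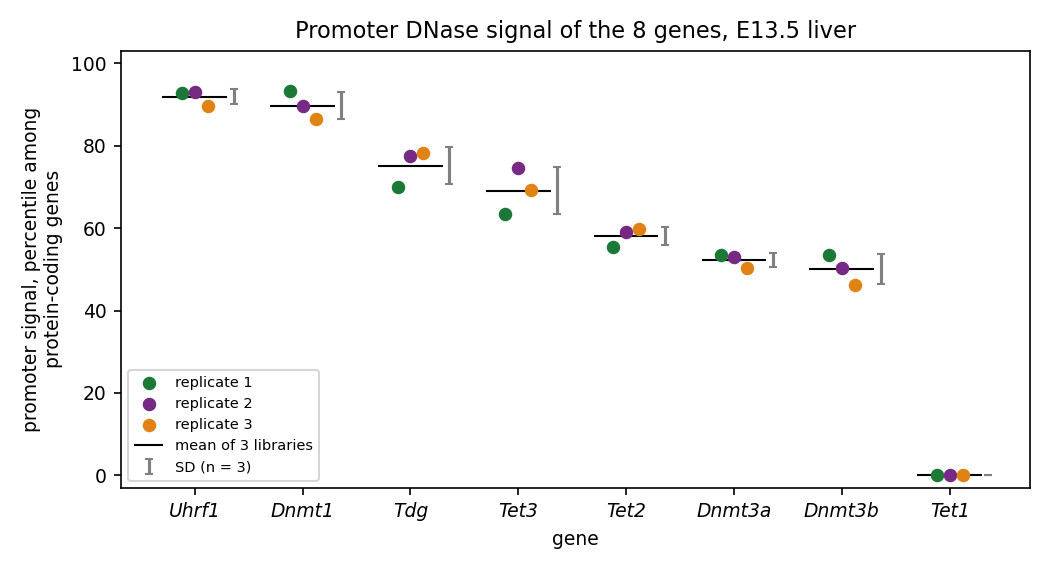
Promoter signal of the 8 genes as a percentile among protein-coding genes (vertical axis, 0 for no peak), with 1 point per library, a line at the mean and a bar for the SD over 3 libraries. Uhrf1 and Dnmt1 lie near 90, Dnmt3a and Dnmt3b near 50, and Tet1 at 0.

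Counted by start site, within 250 bp of it, 14 of the 53 sites had a peak in all 3 libraries, 6 in 1 or 2 libraries and 33 in none. Over all 63147 sites the share with a peak in all 3 was 25.6%. Within replicates 1, 2 and 3 it was 28%, 39.6% and 30.3%, and 14, 20 and 17 of the 53 sites had a peak. The annotation's basic set holds the better supported transcripts, and 11 of the 16 member sites in it were open in all 3 libraries, against 40% of all basic sites. Outside it, 3 of 37 member sites were. At least 2 sites open in all 3 libraries were found in 6 of the 8 genes (26.1% of genes with 2 or more sites). With each site given the highest peak within 250 bp, such sites lay under separate peaks in 4 of 8 (9.48%). These were Dnmt3a, Uhrf1, Tet2 and Tet3. By this rule the open Dnmt1 sites share 1 peak, although a second peak lies over Dnmt1 site 4. The 8 genes are annotated with more sites than most, a median of 6.5 against 2 for all protein-coding genes. Here a site with a listed peak is called open, and one without is not thereby shown to be closed.

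Dnmt1 (ENSMUSG00000004099.16, chr9:20907209-20959888, minus strand) copies methylation after replication. Its most upstream site, the start of Dnmt1-202 (1501 residues), and its main cluster of sites lie 6909 bp apart, and the first had no peak where the cluster had one in every library. To show the contrast in CpG content, the 120 bases upstream of site 1 and of site 2, the start of Dnmt1-201 (1620 residues), are printed on the gene's strand from the GRCm38.p6 genome, with CpG dinucleotides in capitals.
Dnmt1 site 1, chr9:20959889-20960008: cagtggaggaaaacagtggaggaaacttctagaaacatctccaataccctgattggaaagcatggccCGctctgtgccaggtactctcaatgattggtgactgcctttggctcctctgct
Dnmt1 site 2, chr9:20952980-20953099: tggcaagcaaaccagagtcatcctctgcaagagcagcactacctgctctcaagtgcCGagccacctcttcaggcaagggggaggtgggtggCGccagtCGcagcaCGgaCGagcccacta
Site 1 has 1 CpG in this stretch and site 2 has 5, and the full windows of 250 bp on either side hold 4 and 29. Site 1 had no peak in any library, and the nearest peak was 6848, 6848 and 6928 bp away in replicates 1, 2 and 3. At site 2 the peak signal was 5.91, 15.3 and 9.62, above 95.9%, 98.3% and 95.0% of the peaks of the respective library. Sites 3 and 4 share that peak within 250 bp. A second peak, chr9:20952481-20952740, lay over site 4, the start of Dnmt1-203 and Dnmt1-207, with a signal of 3.27, 7.05 and 3.77. It was the weaker of the pair in 3 of 3 libraries. Sites 5 and 6, starts of transcripts outside the basic set, had no peak within 250 bp in any library.

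Footprints found in all 3 libraries at the Dnmt1 sites numbered 4. In a pair of them, 1 under each peak, a search of both strands found GCATGCGC, the core of the site of NRF1, a regulator of housekeeping and respiratory genes. Both lie in 5′ untranslated sequence, and their starts are 341 bp apart. Both matches extend to the same palindrome of 10 letters, which also stood in another shared footprint of the locus, in the distal region in Angptl6 described below. The 3 are printed on the strand of Dnmt1 with the palindrome in capitals and 6 bases on either side.
In Angptl6, chr9:20878409-20878430: cacgctGCGCATGCGCctgggt
At sites 3 and 4, chr9:20952594-20952615: cagggcGCGCATGCGCggggca
At sites 2 and 3, chr9:20952935-20952956: cgttgcGCGCATGCGCactccc
GCATGCGC was present in 2.45% of all shared footprints at TSSs and 0.688% of those at distal regions. It is a match of letters and not a measurement of binding.

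Uhrf1 (ENSMUSG00000001228.14, chr17:56303321-56323486, plus strand) binds hemimethylated CpG and brings Dnmt1 to it. Its 2 upstream start sites, 992 bp apart, were both open in all 3 libraries under separate peaks. Each starts a transcript for a protein of 782 residues. The stretches upstream of them are printed on the plus strand to show where the 4 footprints found in all 3 libraries lie, in capitals.
Uhrf1 site 1, chr17:56303181-56303320: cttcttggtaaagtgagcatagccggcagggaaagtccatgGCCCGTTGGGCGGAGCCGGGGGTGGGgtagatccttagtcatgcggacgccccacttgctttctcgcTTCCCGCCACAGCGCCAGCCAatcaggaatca
Uhrf1 site 2, chr17:56304153-56304312: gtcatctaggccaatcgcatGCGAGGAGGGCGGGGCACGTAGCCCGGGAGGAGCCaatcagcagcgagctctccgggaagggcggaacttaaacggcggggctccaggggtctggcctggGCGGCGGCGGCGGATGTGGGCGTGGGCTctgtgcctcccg
GGGCGG, the GC box of the SP and KLF zinc finger factors, matched in 3 of these 4 footprints when each was extended by 5 bp, and CCAAT, the NFY box, in 2 of 4. Over all shared footprints at TSSs the shares were 32.4% for GGGCGG and 7.13% for CCAAT. At site 1 the peak signal was 3.99, 10.3 and 11.5 in replicates 1, 2 and 3. At site 2 it was 5.81, 18.0 and 10.9. The log2 ratio of site 2 over site 1 was 0.54, 0.81 and -0.08, so site 2 was the higher in replicates 1 and 2 and the sites were nearly level in replicate 3. The windows hold 28 and 46 CpG dinucleotides. Sites 3 and 4, inside the gene, had no peak within 250 bp in any library.

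Dnmt3a (ENSMUSG00000020661.15, chr12:3806007-3914443, plus strand) adds methyl groups to unmethylated CpG. The gene is read from an upstream promoter, which gives the long protein, and from an internal one, which gives a shorter protein without the long amino-terminal part. Of its 14 sites, 2 had a peak in all 3 libraries. Site 2, the start of Dnmt3a-202 and Dnmt3a-206, which the basic set leaves out, had a signal of 0.929, 1.05 and 0.581. Site 9, the internal start of Dnmt3a-203 and Dnmt3a-205 (689 residues), had 0.985, 1.42 and 0.492. No peak lay over this start itself, and the nearest were 132, 88 and 15 bp away in replicates 1, 2 and 3. The log2 ratio of site 9 over site 2 was 0.08, 0.43 and -0.24, and its sign changed between libraries. The sites annotated for the long protein of 908 residues, sites 3 and 4, had a peak in replicate 2 alone, with a signal of 0.823. In replicate 1, positions within 250 bp of both sites passed the deposited false discovery rate, at 0.0334 at best, without a listed peak. In replicate 3 the nearest such position was 526 bp from site 3 and 656 bp from site 4. Sites 3 and 4 were also the richest in CpG of the 53, with 79 and 85 in the window. Another region near the upstream promoter, chr12:3807681-3808400, 521 bp from the nearest Dnmt3a TSS, was found in all 3 libraries at 0.739, 0.639 and 0.422. Every other Dnmt3a site, 10 in number, had no peak within 250 bp in any library.

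Dnmt3b (ENSMUSG00000027478.15, chr2:153649450-153687730, plus strand), the other de novo enzyme, has 10 of its 12 annotated transcripts starting at sites 1 and 2, which are 167 bp apart and share a peak. The 120 bases upstream of site 1 hold 16 CpG dinucleotides, in capitals, and show how dense the CpG island at this weakly open promoter is.
Dnmt3b site 1, chr2:153649330-153649449: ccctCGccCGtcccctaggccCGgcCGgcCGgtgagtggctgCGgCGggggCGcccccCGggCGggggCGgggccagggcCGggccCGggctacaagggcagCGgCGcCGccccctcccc
The peak signal was 0.985, 1.02 and 0.374 in replicates 1, 2 and 3, and the peak exceeded 40.7%, 77.8% and 16.4% of its library's peaks. In replicate 1 this peak lay over site 2, and a separate peak nearer to site 1 had a signal of 0.750. The shared peak was weak in replicates 1 and 3, and replicate 2, the library with the most peaks, ranked it higher. With the stricter of the deposited peak lists Dnmt3b lost its promoter peak in 1 library, and its mean percentile was then 34.9. With equal numbers of the strongest peaks per library both Dnmt3a and Dnmt3b lost theirs in 1 library, with mean percentiles of 35.5 and 34.6, and 5 of the 8 genes kept a promoter peak in all 3. A separate region beside it, chr2:153649941-153650325, was found in all 3 libraries at 0.784, 0.684 and 0.346, and lies over the annotated start of the antisense gene Dnmt3bos. DNase signal carries no strand. Dnmt3c, a duplicate of Dnmt3b, lies within 50 kb downstream, and how reads that match more than 1 place were treated is not given in the sources used here. Neither Dnmt3a nor Dnmt3b had a footprint found at overlapping positions in all 3 libraries at its own start sites.

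Tet1 (ENSMUSG00000047146.17, chr10:62804570-62908996, minus strand) was the 1 member without a peak at its basic-set starts. Tet1 is known from pluripotent and germ cells, where it oxidises methylcytosine at CpG-rich promoters. To set it beside Dnmt1 site 1, the 120 bases upstream of site 2, the start of Tet1-206 (2039 residues), are printed on the minus strand with CpG dinucleotides in capitals.
Tet1 site 2, chr10:62899119-62899238: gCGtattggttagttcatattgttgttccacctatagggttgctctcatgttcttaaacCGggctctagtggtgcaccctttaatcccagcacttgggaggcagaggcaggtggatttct
This stretch holds 2 CpG dinucleotides and the window 7, and the nearest peak was 21383, 11598 and 11658 bp away. Site 6, the start of Tet1-201 (2007 residues), with 20 CpG dinucleotides in its window, had no peak either. Starts outside the basic set did have peaks, in replicates 2 and 3. At sites 4 and 5 these had a signal of 0.740 and 0.415, and at site 7 of 0.893 and 0.471. Replicate 1, the library with the fewest peaks, had none at any Tet1 site. The Tet1 start in RefSeq's promoter table for GRCm38.p6 is that of site 5, so the choice of annotation changes this result. With promoters of all annotated transcripts the mean percentile of Tet1 was 31.4 in place of 0.

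Tet2 (ENSMUSG00000040943.12, chr3:133463679-133545139, minus strand), an enzyme best known in blood stem cells, was open at both upstream sites and at none of its 5 internal ones. Site 1, the start of Tet2-205, had a signal of 0.940, 0.854 and 0.471. Site 2, the start of the transcripts for the 1920-residue protein, had 1.18, 2.87 and 1.73. Site 2 was the higher in 3 of 3 libraries, with a log2 ratio of 0.32, 1.75 and 1.88. The pair of peaks merged into 1 region, chr3:133544181-133545240, with 120 CpG dinucleotides, and the non-coding gene Gm42567 has a start within 1000 bp of it.

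Tet3 (ENSMUSG00000034832.15, chr6:83362373-83459084, minus strand) was open at 2 sites 14760 bp apart, which start different proteins. Site 2, the start of Tet3-203 (1803 residues), had a signal of 1.76, 2.71 and 0.831. These are the highest peaks in its window, in a region that begins 129 bp upstream of the start. The region over the start itself, chr6:83456201-83456460, had 1.10 and 1.42 in replicates 1 and 2 and no peak in replicate 3. Site 3, the start of Tet3-201, Tet3-202 and Tet3-205 (1668 residues), had 1.96, 7.94 and 3.62. The log2 ratio of site 3 over site 2, from the highest peak in each window, was 0.16, 1.55 and 2.12. Site 3 was the higher in 3 of 3 libraries, by little in replicate 1 and by more in the others. The non-coding gene B230319C09Rik starts in the window of site 3. The stretch upstream of site 3 is printed on the minus strand with the 1 shared footprint of the Tet3 starts in capitals.
Tet3 site 3, chr6:83441679-83441838: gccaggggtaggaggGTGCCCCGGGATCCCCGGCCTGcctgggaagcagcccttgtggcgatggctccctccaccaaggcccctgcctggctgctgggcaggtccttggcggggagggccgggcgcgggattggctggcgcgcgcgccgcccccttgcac
None of the motifs searched matched in that footprint, which says only that those letters are not in it.

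Tdg (ENSMUSG00000034674.18, chr10:82629828-82650799, plus strand) removes the oxidised bases that Tet enzymes make. Of its 7 sites, site 1, the start of the transcripts for the 421-residue protein, had a signal of 2.66, 9.07 and 6.16 and was above 78.2%, 95.9% and 91.0% of the peaks of its library. Site 2 had a peak in replicate 2 alone, at 0.441. The other 5 sites had none within 250 bp. A pair of footprints at site 1 was found in all 3 libraries, and GGGCGG matched in 1 of them.

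**Figure D2:**
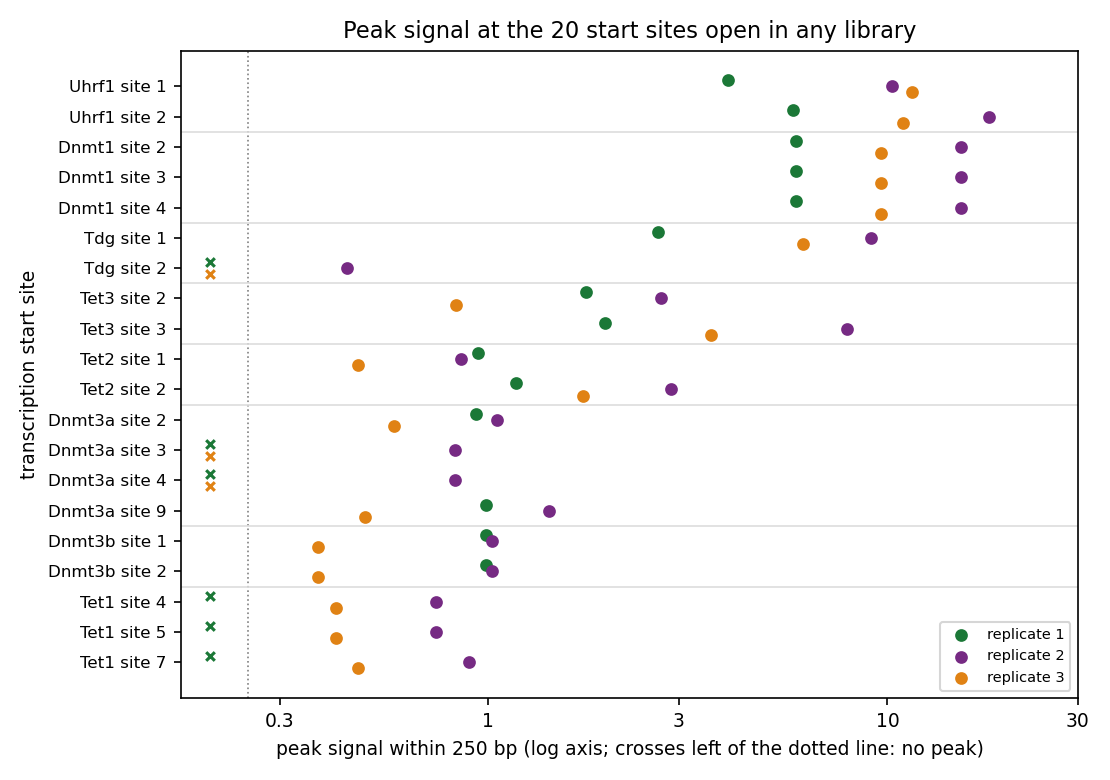
Peak signal (horizontal log axis, per-library scale) within 250 bp of the 20 start sites with a peak in any library, 1 point per library and a cross where a library had no peak. The Uhrf1 and Dnmt1 sites lie to the right, and the Tet1, Dnmt3a and Dnmt3b sites to the left, at or below a signal of 1.42.

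Across the 14 sites open in all 3 libraries the signal ran from 0.929 to 5.91 in replicate 1, from 0.854 to 18.0 in replicate 2 and from 0.374 to 11.5 in replicate 3. CpG content followed openness over the 53 sites. The window of 501 bp held 27 to 78 CpG dinucleotides (median 43.5) at sites open in all 3 libraries, 9 to 85 (median 26.5) at those open in 1 or 2, and 0 to 21 (median 7) at those with no peak. The range of the first group does not overlap that of the last. The same held over all sites as a trend: 0.724%, 2.33%, 26.8% and 74.5% of the sites in 4 classes cut at the quartiles of CpG content, from low to high, were open in all 3 libraries. Of member sites in those classes, 0 of 13, 0 of 15, 4 of 13 and 10 of 12 were. These are descriptions across sites, several of which share a window. Of the RefSeq promoter table's 13 starts for the 8 genes, which were all matched, each lay at most 50 bp from a site numbered here.

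**Figure D3:**
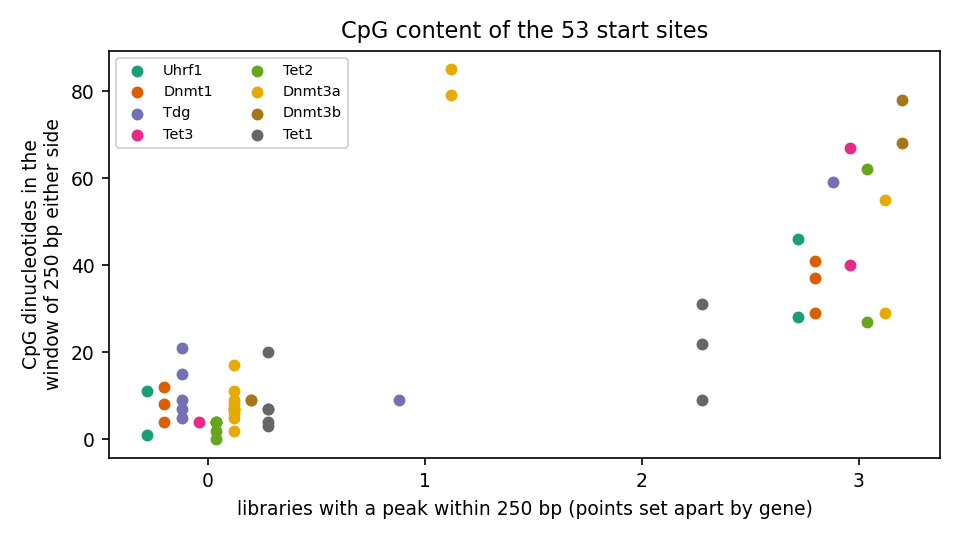
Number of CpG dinucleotides in the 501 bp window (vertical axis) of each of the 53 start sites, against the number of libraries with a peak there, coloured by gene. Sites with no peak hold at most 21, sites open in all 3 libraries at least 27, and the Dnmt3a sites 3 and 4 hold 79 and 85 with a peak in 1 library.

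Motifs were searched on both strands in the windows of the 14 open sites, and shares over all 16137 sites open in all 3 libraries are given beside each. GGGCGG was present at 14 of 14 (80.5% over all). CCAAT was present at 8 of 14 (43.4%), and TTNGCGC, the core of the E2F cell-cycle factors, at 6 of 14 (18.1%), 3 of each in the overlapping Dnmt1 windows. GCATGCGC stood at 3 of 14 (6.33%), all at Dnmt1. AGGGGGC, part of the CTCF site, was present at 7 of 14 (23.4%). Among the 7 were Dnmt1 sites 2 and 3 and Dnmt3b sites 1 and 2, whose windows overlap within each gene. It is 1 fixed form, and other forms of the CTCF site were not searched. AGATAA or TGATAA, the words of the GATA factors that lead red cell formation, were in 0 of 14 (11.6%). CCNCNCCC, the word of the red cell factor Klf1 and its relatives, was in 14 of 14 (83.4%), and some of its matches overlap GGGCGG. The ETS word CCGGAAG was in 0 of 14 (24.3%). Of the 14 sites 11 had a footprint in the window in every library (89.9% over all open sites). In the 12 footprints found at overlapping positions in all 3 libraries at the genes' own starts, GGGCGG matched in 4 (32.4% of such footprints over all genes). TTNGCGC matched in 2 (2.45%), both at Dnmt1, 1 of which also held GCATGCGC.

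Over the 8 loci, peaks of the 3 libraries merged into 160 regions, and 59 of these were found in all 3, against 19.7% of all merged regions. Only 13 of the 59 lay within 1000 bp of the gene's own starts, while 26 lay at starts of other genes, 11 inside other genes, 8 between genes and 1 in an intron of the gene itself. Shared regions were densest around Uhrf1, at 11.7 per 100 kb, which is above 98.3% of protein-coding genes. The density was 7.20 around Dnmt1, 5.59 around Tet3, 5.06 around Dnmt3b, 4.13 around Tdg, 2.88 around Dnmt3a and 1.96 around Tet1. Around Tet2 it was 0.551, from 1 region at its own promoter, and no other. The median was 4.60 over the 8 genes and 1.98 over all protein-coding genes. Inside the gene bodies, away from any start, 21 intron and exon regions were listed: 1 in replicate 1, 20 in replicate 2 and 8 in replicate 3. The numbers of peaks in the libraries rank the same way, and the part of depth in these counts was not tested. The 1 region found in all 3 was in Tet3, so 1 of 8 genes had a shared distal region in its own body, where distal means more than 1000 bp from any TSS. The share was 15.3% over all protein-coding genes and 22.1% over genes as long as these.

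**Figure D4:**
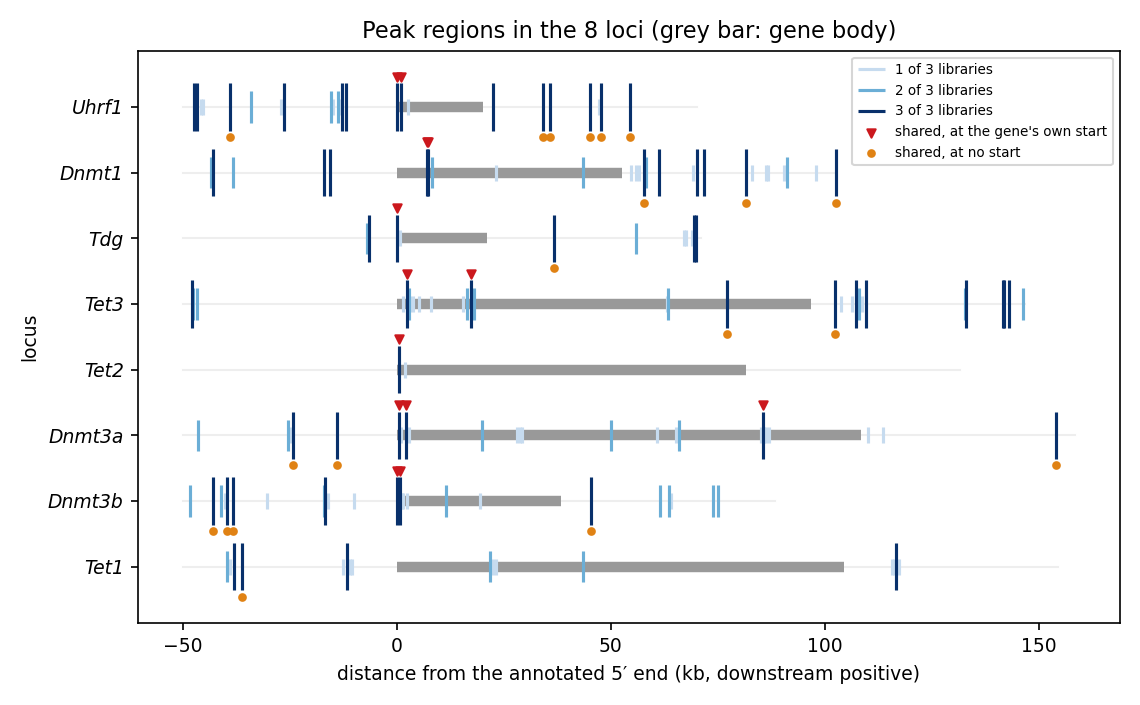
Merged peak regions (vertical ticks) in the 8 loci against distance from the gene's annotated 5′ end in kb, with tick colour and height for the number of libraries, triangles for shared regions at the gene's own starts and dots for shared regions at no start. The Tet2 locus holds 1 shared region, and 13 triangles mark the shared regions at the genes' own starts.

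Distal regions found in all 3 libraries numbered 20 in the 8 loci, from 6 around Uhrf1 to 0 around Tet2. They were among 20 distal regions between genes, 31 inside other genes and 21 in the introns and exons of the 8 genes. Of all merged distal regions 11.3% were found in all 3. The strongest by its worst library is described for each gene that has one, without any claim on which gene it acts. In the Dnmt1 locus it was chr9:20878301-20878520, in a coding exon of Angptl6 and 1207 bp from the nearest TSS of that gene, 30.6 kb from the nearest Dnmt1 start. Its signal of 8.40, 25.7 and 17.8 was above 99.3%, 99.7% and 98.8% of the peaks of the respective library, and exceeded that of the Dnmt1 promoter in 3 of 3 libraries. It is printed on the plus strand with shared footprints in capitals, and the first of the palindromes lies in one of them.
Region in Angptl6, chr9:20878301-20878520: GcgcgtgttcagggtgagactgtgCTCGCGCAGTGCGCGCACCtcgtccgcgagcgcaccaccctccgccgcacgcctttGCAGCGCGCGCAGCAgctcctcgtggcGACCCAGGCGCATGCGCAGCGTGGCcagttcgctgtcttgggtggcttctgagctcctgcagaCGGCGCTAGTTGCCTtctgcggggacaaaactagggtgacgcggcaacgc
This region holds 28 CpG dinucleotides, and the other strongest distal regions of the 8 loci hold 2 to 16. At 1207 bp it was also the nearest of them to a gene start.

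In the Dnmt3a locus the strongest was chr12:3791861-3792080, 14.0 kb upstream of the gene and between genes. Its signal was 4.08, 5.23 and 3.87, higher than that of any Dnmt3a start in 3 of 3 libraries. All 4 footprints found in all 3 libraries around Dnmt3a were distal. Those in this region are in capitals in its plus strand.
Region upstream of Dnmt3a, chr12:3791861-3792080: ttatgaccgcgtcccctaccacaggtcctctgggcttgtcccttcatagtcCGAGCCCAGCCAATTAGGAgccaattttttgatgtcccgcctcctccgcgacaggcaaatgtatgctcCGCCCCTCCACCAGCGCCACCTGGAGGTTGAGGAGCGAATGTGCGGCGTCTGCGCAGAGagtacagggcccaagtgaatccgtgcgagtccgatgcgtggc
GGGCGG matched on the minus strand at the start of the longest capital stretch, and CCAAT matched in the other. For CTCF only the fixed word AGGGGGC was searched, so other forms of its site in these stretches would be missed.

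In the Tdg locus the strongest was chr10:82666541-82666740, in Glt8d2, 36.8 kb from the Tdg 5′ end, with a signal of 1.21, 1.40 and 1.05. It holds the 1 distal footprint found in all 3 libraries in which a GATA word matched (TTATCT on the printed strand), of 26 such footprints in the 8 loci. The share over all shared distal footprints was 3.15%. The footprint is in capitals below, with the GATA word near its end and the letters CCAGGTGGCGC ahead of it. For CTCF only the fixed word AGGGGGC was searched, so another form of its site in this footprint would be missed. The GATA match is one of letters and does not show which factor protects the stretch.
Region in Glt8d2, chr10:82666541-82666740: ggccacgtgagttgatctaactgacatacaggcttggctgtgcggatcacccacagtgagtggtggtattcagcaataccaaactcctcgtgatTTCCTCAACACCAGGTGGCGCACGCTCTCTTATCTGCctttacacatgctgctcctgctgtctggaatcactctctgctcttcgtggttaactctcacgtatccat
The Tet3 intron region, chr6:83381921-83382160, 77.0 kb from the 5′ end, had a signal of 0.918, 2.78 and 2.56. It held no footprint found in all 3 libraries, and its GATA word, on the minus strand, is in capitals in the plus strand below.
Region in Tet3, chr6:83381921-83382160: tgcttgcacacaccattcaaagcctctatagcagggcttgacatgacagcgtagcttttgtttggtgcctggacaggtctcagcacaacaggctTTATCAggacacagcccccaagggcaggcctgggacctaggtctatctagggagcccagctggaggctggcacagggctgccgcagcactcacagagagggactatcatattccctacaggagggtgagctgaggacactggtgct
A GATA word matched in the central 201 bp of 6 of the 20 shared distal regions (21.1% of all shared distal regions) and AGGGGGC in 4 of 20 (17.7%). These are 30% and 20% of the 20.

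The strongest distal region of the Tet3 locus was chr6:83356601-83356880, in Bola3, at 2.30, 3.15 and 1.85. That of the Dnmt3b locus was chr2:153609661-153609880, 39.7 kb upstream, at 2.58, 4.04 and 2.06. In both of these a footprint found in all 3 libraries held AGGGGGC. In the 8 loci 4 of 26 shared distal footprints held it (15.4%), near the share of 12.8% over all shared distal footprints. The Uhrf1 locus had chr17:56350801-56351040 at 2.23, 2.10 and 0.935, in Kdm4b, the histone demethylase gene that holds 5 of the 6 shared distal regions there. The Tet1 locus had chr10:62945001-62945260, in Slc25a16, at 0.593, 1.48 and 1.53, which in replicate 1 was above 15.2% of the peaks.

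Footprints in the 8 loci numbered 199, 647 and 308. Of these 87.9%, 72.6% and 79.5% overlapped a peak of the same library, against 89.5%, 77.1% and 86.9% of all footprints. Merged over libraries they came to 785, of which 104 were found in all 3, against 10.7% of all merged footprints. Of the 104, 12 lay at the genes' own starts, 4 each at Dnmt1 and Uhrf1, 2 at Tdg and 1 each at Tet2 and Tet3, while 60 lay at starts of other genes and 26 at distal regions.

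Genes that work with the 8 were mostly open. A promoter peak in all 3 libraries was found for 35 of 42 in 4 lists, with a median percentile of 75.5. In the list of maintenance and de novo partners 8 of 10 had one, led by Pcna, the sliding clamp of replication, at 92.8 and Trim28, a corepressor, at 83.8. The other 2 were Dnmt3l, the cofactor of de novo methylation in germ cells, and Dppa3, which shields the maternal genome, and neither had a peak in any library. Of readers of methylated CpG 6 of 7 had one, with Mbd3 at 98.9 and Mbd2 at 92.7, while Zbtb38 had one in replicate 2 only. Of demethylation and base excision repair genes 12 of 15 had one, with the scaffold Xrcc1 at 96.5 and the glycosylase Mbd4 at 96.1, while the glycosylase Smug1 had none. Of cofactor supply genes 9 of 10 had one. Mat1a, the adult liver form of methionine adenosyltransferase, was lowest in that list at 27.9 ± 24.5 (SD, n = 3). Against the 51.4% of all protein-coding genes these are shares of lists and carry no test.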

How the data were processed

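The authors called peaks library by library, according to the text listings they deposited. Which caller and footprint tool made the files is not given in the sources used here, and positions are in mm10 per the labels. The peak signal is the deposited signal column of the peak list with more rows, and was used as deposited. Its values are whole multiples of 1 step per library, which the labels do not explain. The deposited false discovery rate files list intervals with their q-value, an adjusted p-value of at most 0.05. The deposited footprint score is the constant 0.01 in every row and was not used. Percentiles, overlaps (at least 1 bp), CpG counts and motif matches were computed with Python 3.11.15, pandas 2.3.3 and pysam 0.24.0 from GENCODE M21 and the GRCm38.p6 genome, and the code was tested on simulated data. Footprints were extended by 5 bp for the search of motifs. The 8 genes, the lists and the 14 motifs were chosen with earlier results of these data known. Named genes are the 8, the distal region with the best worst percentile of each, and the 2 highest and the lowest of each list of related genes. Some of these are not reported here. Alternatives were the stricter peak list, equal numbers of peaks, other windows and overlaps, other transcript sets, and leaving out each library.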

Additional observations from a re-analysis of the deposited data

How the results depend on the processing

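The number of genes with a promoter peak in all 3 libraries was 7 without any 1 library, 6 on the stricter peak list and 5 when each library gave the same number of its strongest peaks. The median percentile stayed between 61.9 and 65.6 when a library was left out. The number of start sites open in every library was 14 to 17 when a library was left out, against 14 with all of them, and 9 with equal numbers of the strongest peaks. Leaving out a library can only keep or raise these counts of genes and start sites, so they could not have come out lower. Shared regions, 59 with all libraries, came to 60 to 92 when a library was left out, with 92 without replicate 1, which has the fewest peaks. They came to 20 with 10 kb on either side of the gene and 14 in the gene body alone, as smaller windows must give. Shared footprints, 104 with all libraries, came to 106 to 191 when a library was left out, with 191 without replicate 1. They came to 10 in the gene body alone and to 0 when start and end had to be identical. Of the single genes, Dnmt3a and Dnmt3b moved with the peak list and Tet1 with the transcript set, by the values given above. The 60 other values of single genes moved by no more than the SD over libraries. For the values with a library left out this was fixed in advance. Dropping 1 of 3 libraries cannot shift a mean by more than that SD, so these values do not measure stability. Start sites of the basic set alone gave 11. This set and the promoters of all annotated transcripts were chosen after seeing the data. No paired analysis was possible because the libraries form 1 group. Without read totals, a site without a listed peak was not detectable as open at this depth, which is not the same as closed.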
